A study of Mus musculus with 12 samples.

Results

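The receptor-regulated, shared and inhibitory Smads, the co-repressors Ski and Skil and the ubiquitin ligase Smurf1 were followed in mesenchymal stem/stromal cells (MSCs) with and without p38α. The 10 genes (Smad1, Smad2, Smad3, Smad4, Smad5, Smad6, Smad7, Ski, Skil and Smurf1) were taken through every probeset of the array, a set of short probes for 1 transcript, that the given annotation assigns to exactly 1 of them. This gave 20 probesets of 45037 for 10 genes of 17097, and each of the 10 genes was found. Probesets of 1 gene read the same transcripts and were not counted as replicates.

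The 12 arrays (Affymetrix MG-430 PM) measured RNA of bone marrow MSCs, immortalized by serial passage, from mice with both loxP-flanked copies of Mapk14, the gene of p38α, and a tamoxifen-inducible Cre recombinase (Cre-ERT2). WT MSCs (labelled CTRO) were given vehicle and p38α∆ MSCs (labelled KO) 4-OHT, the active form of tamoxifen, so both carry the loxP sites and the Cre. The groups were WT (n = 4, arrays 1, 3, 4 and 4b), TGF-β-treated WT (n = 3, arrays 1, 3 and 4), p38α∆ (n = 2, arrays 1 and 3) and TGF-β-treated p38α∆ (n = 3, arrays 1, 2 and 4). All cells were kept in 0.5% serum, and the treated ones received TGF-β at 5 ng/ml for 20 h. The labels name the strain as FVB/NJ, the study's methods name a C57BL/6J background, and the age of the mice is not given in the sources used here. What an array number stands for, and whether arrays of a group are separate cultures, is not given either, so p-values measure the spread between these arrays, and the number of arrays limits the precision. Values are log2 levels after RMA normalization, and a difference of 1 is a doubling.

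TGF-β and activin receptors phosphorylate Smad2 and Smad3, and BMP receptors phosphorylate Smad1 and Smad5. The activated proteins join Smad4, move to the nucleus and bind DNA with other factors, and this is the main route from TGF-β to the genes of stromal cells. Smad7 and Smad6 block the receptors or compete for Smad4, Ski and Skil (SnoN) recruit co-repressors to Smad complexes, and Smurf1 marks Smads and receptors for degradation, the latter when Smad7 brings it to them.

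The given RefSeq table of promoters (GRCm38.p6) holds 6 of the 10 genes, Smad3, Smad1, Smad5, Smad6, Ski and Smurf1, and does not hold Smad2, Smad4, Smad7 or Skil. The 250 bases before the annotated start are printed for Smad3, Ski and Smurf1, because these genes changed with TGF-β below, with Smad boxes in capitals. The Smad box, the short element that Smad3 and Smad4 bind, was searched as CAGAC on both strands from 250 bases before to 50 after the start. The Smad3 stretch lies at chr9:63757995-63758244, that of Ski at chr4:155222536-155222785 and that of Smurf1 at chr5:144965831-144966080, all on the minus strand and written 5′ to 3′ in the direction of the gene.
Smad3: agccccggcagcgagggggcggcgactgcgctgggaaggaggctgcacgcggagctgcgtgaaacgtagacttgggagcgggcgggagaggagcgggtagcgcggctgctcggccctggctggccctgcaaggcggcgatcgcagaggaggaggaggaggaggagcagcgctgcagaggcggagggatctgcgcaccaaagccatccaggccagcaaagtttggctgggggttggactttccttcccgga
Ski: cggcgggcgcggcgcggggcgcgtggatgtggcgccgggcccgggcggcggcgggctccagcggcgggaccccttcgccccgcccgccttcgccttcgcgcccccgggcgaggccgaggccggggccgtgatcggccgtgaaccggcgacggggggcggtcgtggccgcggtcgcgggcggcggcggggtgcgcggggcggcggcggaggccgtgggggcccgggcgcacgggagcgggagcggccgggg
Smurf1: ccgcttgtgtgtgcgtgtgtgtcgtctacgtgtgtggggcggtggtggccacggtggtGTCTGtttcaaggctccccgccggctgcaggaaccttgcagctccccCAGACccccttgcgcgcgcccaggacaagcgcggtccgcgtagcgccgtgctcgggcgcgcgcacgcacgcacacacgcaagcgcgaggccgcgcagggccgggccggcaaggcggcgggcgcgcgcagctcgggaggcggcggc
The Smurf1 window held 2 Smad boxes, the first from −192 to −188 on the reverse strand and the second from −145 to −141 on the strand of the gene, counted from the start, and the windows of Smad3 and Ski held none. Of all 32851 promoters in the table, 49.6% held at least 1. The AP-1 site, searched as TGACTCA on both strands, was in none of the windows of these 6 genes and in 5.2% of all promoters. The palindrome GGCGCC, a GC-rich element bound by Smad1 and Smad5, was found once in the Ski window, from −220 to −215, and in 11.9% of all promoters. Of the 3 Smad5 windows, 1 held this palindrome from 24 to 29, 1 held it from −19 to −14 and 1 held a Smad box from −21 to −17. The windows with the palindrome overlap, and their matches are the same bases counted from different starts. These matches describe the letters in the windows and were not tested for binding.

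A single limma fit held all arrays and all 45037 probesets, with a shared number entered as a random block, and a probeset was called at an adjusted p under 0.05. A gene was called where at least 1 of its probesets was. Fitted differences take the array numbers into account and can differ slightly from the differences of group means. On the first principal component (50.6% of the variance) the 4 arrays numbered 1 lay at −64.2 to −41.0 and the other 8 at 6.61 to 48.9, while the second component (23.9%) was below 0 for treated and above 0 for untreated arrays. None of the 6 probesets of Mapk14 was called between p38α∆ and WT with or without TGF-β, and they check no label, since their place relative to the deleted part is not given in the sources used here. The 7 measured MSC markers averaged 6.31 to 6.61 on an array, the 6 endothelial markers 3.50 to 3.85, the 5 leukocyte markers 3.53 to 3.82, the 5 epithelial markers 3.83 to 4.50, the 2 adipocyte markers 3.01 to 3.27 and the 4 osteoblast markers 6.45 to 7.04. These means hide low members. In WT MSCs Itgb1 averaged 11.09, Pdgfrb 9.14, Pdgfra 6.14, Nt5e 6.02, Eng 4.58, Mcam 4.22 and Thy1 3.40. Of the osteoblast markers, Ibsp averaged 8.63, Sp7 8.40, Bglap 6.92 and Dmp1 3.07 there. The MSC mean was 6.31 to 6.42 in WT, 6.44 to 6.51 in TGF-β-treated WT, 6.36 to 6.43 in p38α∆ and 6.55 to 6.61 in TGF-β-treated p38α∆ MSCs, so this mean moved with TGF-β. Its members did not move as a set. With TGF-β only Nt5e was called in WT MSCs, higher, while in p38α∆ MSCs Mcam was called higher and Pdgfra lower. Mcam was also called higher in p38α∆ than in WT MSCs with TGF-β. The osteoblast mean was 6.67 to 6.93 in WT, 6.45 to 6.75 in TGF-β-treated WT, 6.91 to 7.04 in p38α∆ and 6.62 to 6.69 in TGF-β-treated p38α∆ MSCs, lower on each treated than on each untreated p38α∆ array and overlapping in WT. Its members differed too. With TGF-β Sp7 was called higher and Bglap lower in WT MSCs, and only Bglap was called, lower, in p38α∆ MSCs. The part of either mean, or of its members, in the results below was not tested. Fewer cells that express a gene and less of its RNA per cell cannot be told apart in such bulk RNA.

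With TGF-β, Skil, Ski, Smad7 and Smurf1 rose and Smad3 fell in WT MSCs, and the same 5 genes were called in the same directions in p38α∆ MSCs. The p38α∆ calls of Skil, Ski, Smurf1 and Smad3 were lost in a fit of the 5 p38α∆ arrays alone, for which no correlation between same-numbered arrays could be estimated: there Smad7 was called (adjusted p = 0.0462 in limma), and the probesets of the other 4 genes had adjusted p-values from 0.13 to 0.306. Smad1, Smad2, Smad4, Smad5 and Smad6 were not called in either genotype. In WT MSCs 4 of the 10 genes were therefore higher, against 4.34% of all genes, and 1 was lower, against 5.29%. In p38α∆ MSCs 4 were higher, against 3.56% of all genes, and 1 lower, against 4.82%. The median difference over the leading probesets of the 10 genes, those with the highest mean over all arrays, was 0.14 in WT and 0.23 in p38α∆ MSCs, against −0.01 and −0.003 over all genes. The 2 responses rest on different arrays, but both come from the same fit, which pools the spread over all 4 groups. Their calls are therefore not independent of each other.

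**Figure D1:**
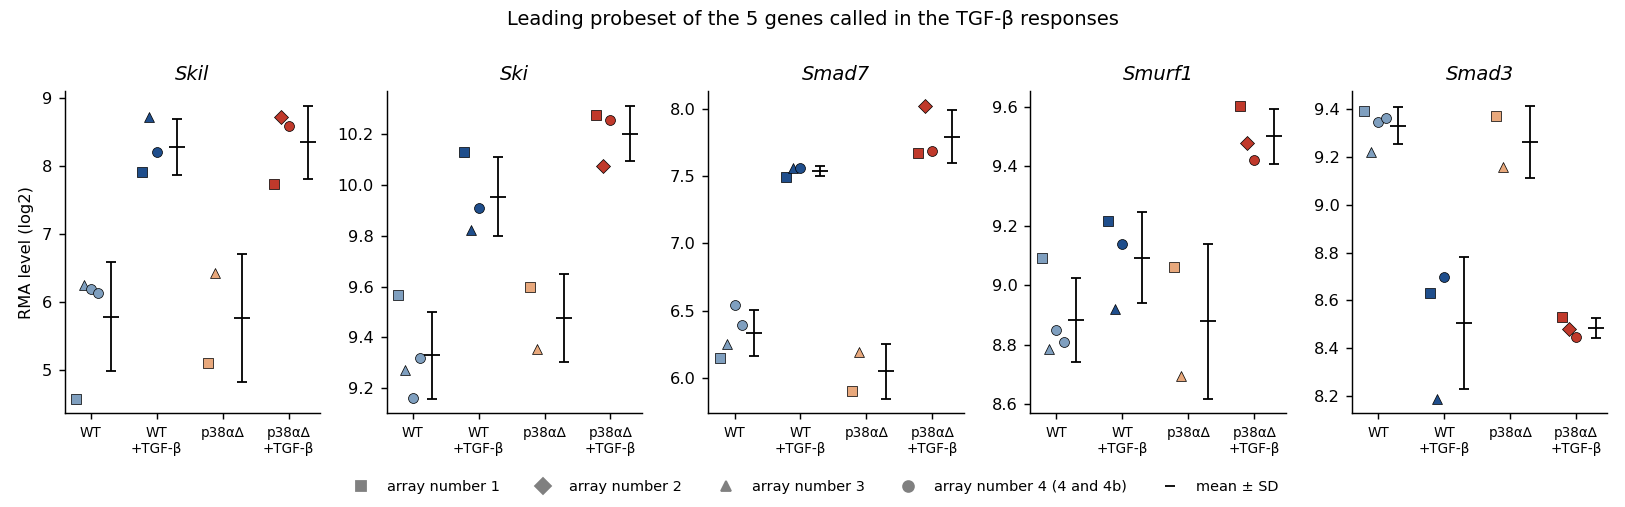
Log2 RMA levels (vertical axis) of the leading probeset of Skil, Ski, Smad7, Smurf1 and Smad3 in the 4 groups, 1 point per array, with the shape for the array number and the mean ± SD beside the points. Treated and untreated arrays of each genotype are apart for Skil, Ski, Smad7 and Smad3, while for Smurf1 the WT groups overlap and the p38α∆ groups do not.

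Smad3, the receptor-regulated Smad that binds the Smad box directly, was the gene that fell. Its leading probeset, 1454960_PM_at, stood at 9.39, 9.22, 9.35 and 9.36 in WT MSCs, at 8.63, 8.19 and 8.70 in TGF-β-treated WT MSCs, at 9.37 and 9.16 in p38α∆ MSCs and at 8.53, 8.48 and 8.45 in TGF-β-treated p38α∆ MSCs. Every treated array lay below every untreated array, in both genotypes. The untreated WT level of 9.33 ± 0.08 (SD, n = 4) went to 8.51 ± 0.28 (SD, n = 3) under TGF-β, a fitted difference of −0.81 (SE 0.08, limma adjusted p = 0.000167), 1.75-fold lower. In p38α∆ MSCs the difference was −0.86 (SE 0.11, adjusted p = 0.000858), 1.81-fold lower. The other probesets gave −1.05 and −1.03 in WT MSCs, and −1.07 and −1.09 without p38α, all called. All 3 probesets thus pointed down in both genotypes, by 0.81 to 1.09 on the log2 scale. Without the 4 arrays numbered 1 the WT call held for all 3 probesets. In p38α∆ MSCs, where 1 untreated array is then left and is assumed to vary like the other groups, it held for 1450471_PM_at only (adjusted p = 0.0443), with 1454960_PM_at at −0.75 (adjusted p = 0.0611) and 1450472_PM_s_at at −0.85 (adjusted p = 0.0721).

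Smad2, which TGF-β receptors activate like Smad3 but which in its main form does not bind DNA itself, did not follow Smad3. Its leading probeset, 1420634_PM_a_at, stood at 8.04, 8.21, 8.10 and 8.21 in WT MSCs, at 7.96, 8.24 and 8.12 in TGF-β-treated WT MSCs, at 8.16 and 8.48 in p38α∆ MSCs and at 8.01, 8.24 and 8.26 in TGF-β-treated p38α∆ MSCs. The groups overlapped throughout. The difference with TGF-β was −0.02 in WT MSCs (95% interval −0.18 to 0.13, adjusted p = 0.917 in limma) and −0.14 in p38α∆ MSCs (95% interval −0.34 to 0.06, adjusted p = 0.507). The other Smad2 probeset, 1442062_PM_at, gave 0.23 and 0.24 with wide intervals, from −0.21 to 0.67 and from −0.34 to 0.81.

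Among the members that are receptor-regulated Smads of the BMP branch, Smad1 stood nearest to a call. Its leading probeset, 1448208_PM_at, stood at 7.32, 8.06, 8.00 and 7.96 in WT MSCs, at 8.04, 8.33 and 8.36 in TGF-β-treated WT MSCs, at 7.86 and 8.03 in p38α∆ MSCs and at 8.20, 8.65 and 8.29 in TGF-β-treated p38α∆ MSCs. Array 1 of WT lay far below the other 3, the WT groups overlapped by 1 array, and the p38α∆ groups did not overlap. The difference with TGF-β was 0.43 in WT MSCs (95% interval 0.15 to 0.71, adjusted p = 0.078 in limma) and 0.38 in p38α∆ MSCs (95% interval 0.02 to 0.74, adjusted p = 0.278). The other Smad1 probeset, 1416081_PM_at, gave 0.25 (adjusted p = 0.104) and 0.21 (adjusted p = 0.353). Smad1 was called in WT MSCs when array 4 of TGF-β-treated p38α∆ MSCs was left out or when each gene was represented by its most variable probeset, a setting in which Smurf1 was not called there. For Smad5, the other such member, the 3 probesets gave −0.05, 0.12 and 0.26 in WT MSCs, against 0.08, −0.12 and 0.12 without p38α. None of them was called. Smad9, a BMP-branch Smad outside the members, was called lower with TGF-β in WT MSCs and is described with the regulators of Smads below.

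Smad4, the partner that all receptor-regulated Smads share, gave differences of 0.09, 0.05 and −0.05 in WT MSCs and of −0.10, −0.01 and 0.19 in p38α∆ MSCs over its 3 probesets, none called. Its leading probeset, 1422487_PM_at, ranged over all arrays from 9.01, in array 1 of WT, to 9.74, in array 3 of p38α∆. Over the 11 probesets of Smad1, Smad2, Smad4, Smad5 and Smad6, the 95% intervals of the TGF-β difference ran from −0.53 to 0.71 in WT and from −0.44 to 0.81 in p38α∆ MSCs.

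**Figure D2:**
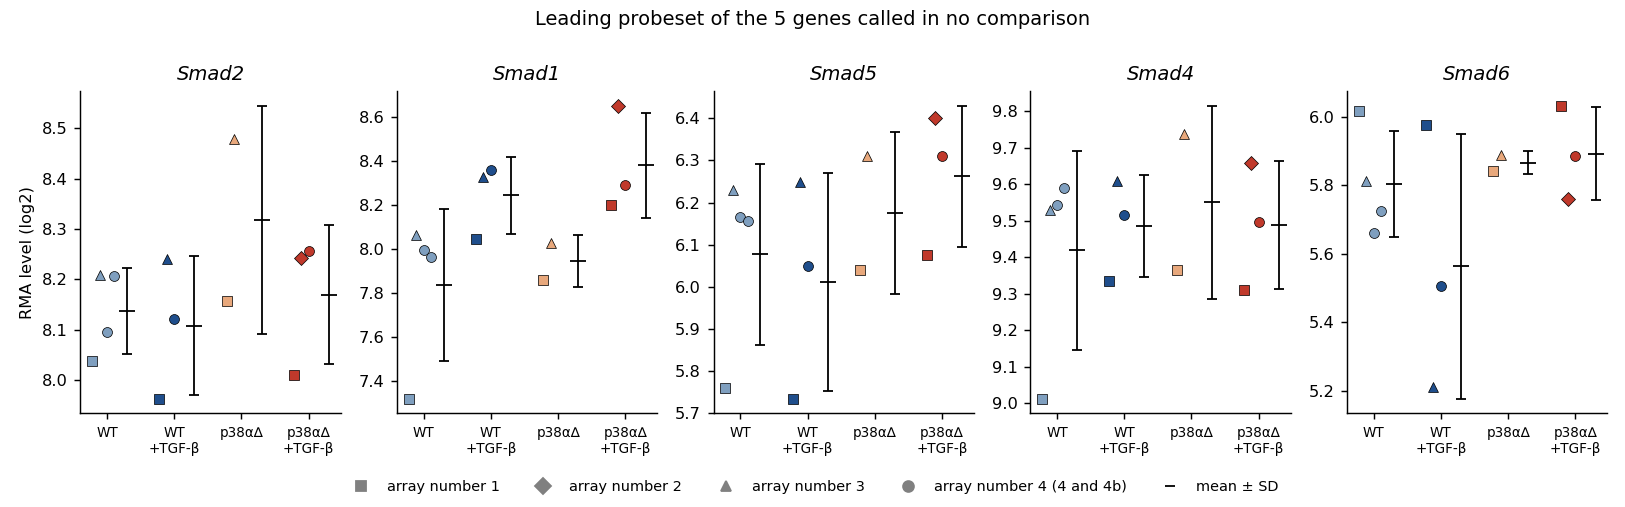
Log2 RMA levels (vertical axis) of the leading probeset of Smad2, Smad1, Smad5, Smad4 and Smad6, none of them called, in the 4 groups, 1 point per array, with the shape for the array number and the mean ± SD beside the points. The arrays numbered 1 are the lowest of their group for Smad2, Smad1, Smad5 and Smad4, and the highest in 3 of the 4 groups for Smad6.

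Smad7, the inhibitory Smad that TGF-β itself induces as feedback, rose in both genotypes. Its single probeset, 1423389_PM_at, stood at 6.15, 6.25, 6.54 and 6.39 in WT MSCs, at 7.49, 7.56 and 7.56 in TGF-β-treated WT MSCs, at 5.90 and 6.19 in p38α∆ MSCs and at 7.67, 8.02 and 7.68 in TGF-β-treated p38α∆ MSCs. No treated array overlapped with an untreated one, and the treated WT arrays were close together (7.54 ± 0.04, SD, n = 3). The WT difference was 1.22 (SE 0.09, limma adjusted p = 1.97e-05), 2.33-fold, and 1.68 in p38α∆ MSCs (SE 0.12, adjusted p = 1.6e-05), 3.20-fold. Among the members, Smad7 had the smallest adjusted p in both responses. Smad6, the inhibitory Smad of the BMP branch, stood at 6.02, 5.81, 5.66 and 5.72 in WT MSCs, at 5.98, 5.21 and 5.51 in TGF-β-treated WT MSCs, at 5.84 and 5.89 in p38α∆ MSCs and at 6.03, 5.76 and 5.89 in TGF-β-treated p38α∆ MSCs. These groups overlapped, and the difference with TGF-β was −0.26 in WT (95% interval −0.53 to 0.02, adjusted p = 0.33) and 0.06 in p38α∆ MSCs (95% interval −0.30 to 0.41, adjusted p = 0.917).

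Skil, the co-repressor known as SnoN, had the largest response of the 10 genes. Its single probeset, 1452214_PM_at, stood at 4.58, 6.25, 6.19 and 6.13 in WT MSCs, at 7.91, 8.72 and 8.20 in TGF-β-treated WT MSCs, at 5.10 and 6.43 in p38α∆ MSCs and at 7.73, 8.71 and 8.59 in TGF-β-treated p38α∆ MSCs. Every treated array was above every untreated one, and in each group the array numbered 1 was the lowest. The level went from 5.79 ± 0.80 (SD, n = 4) to 8.27 ± 0.41 (SD, n = 3) in WT MSCs, a difference of 2.53 (SE 0.27, adjusted p = 0.000176 in limma), 5.79-fold. In p38α∆ MSCs the difference was 2.56 (SE 0.35, adjusted p = 0.00125), 5.88-fold. Without the 4 arrays numbered 1 it was 2.26 (adjusted p = 0.000242) in WT and 2.27 (adjusted p = 0.00128) in p38α∆ MSCs, again with 1 untreated array in the latter.

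Ski, the relative of Skil that binds Smad2, Smad3 and Smad4, rose by less. Its leading probeset, 1429192_PM_at, stood at 9.57, 9.27, 9.16 and 9.32 in WT MSCs, at 10.13, 9.82 and 9.91 in TGF-β-treated WT MSCs, at 9.60 and 9.35 in p38α∆ MSCs and at 10.27, 10.08 and 10.26 in TGF-β-treated p38α∆ MSCs. Treated and untreated arrays did not overlap in either genotype. The WT difference was 0.62 (SE 0.08, limma adjusted p = 0.000828), 1.53-fold, and 0.74 in p38α∆ MSCs (SE 0.11, adjusted p = 0.00174), 1.67-fold. The other probeset, 1426373_PM_at, gave 0.71 and 0.74, both called.

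Smurf1, a ligase of the HECT class that adds ubiquitin to Smads and receptors, gave the smallest rise, and its probesets disagreed in WT MSCs. The leading one, 1428396_PM_at, stood at 9.09, 8.79, 8.85 and 8.81 in WT MSCs, at 9.22, 8.92 and 9.14 in TGF-β-treated WT MSCs, at 9.06 and 8.69 in p38α∆ MSCs and at 9.60, 9.48 and 9.42 in TGF-β-treated p38α∆ MSCs. The WT groups overlapped, and the p38α∆ groups did not. Its WT difference of 0.20 (SE 0.07, limma adjusted p = 0.167) was not called, and it was 0.60 in p38α∆ MSCs (SE 0.10, adjusted p = 0.00377). The other probeset, 1428395_PM_at, stood at 6.58, 6.65, 6.58 and 6.45 in WT MSCs, at 7.01, 6.79 and 7.01 in TGF-β-treated WT MSCs, at 6.73 and 6.73 in p38α∆ MSCs and at 7.48, 7.40 and 7.29 in TGF-β-treated p38α∆ MSCs. Here the treated arrays were above the untreated ones in both genotypes, with differences of 0.37 (SE 0.07, adjusted p = 0.0119) in WT and 0.66 (SE 0.10, adjusted p = 0.00181) in p38α∆ MSCs. The WT call ended without the 4 arrays numbered 1 (0.34, adjusted p = 0.0968), without array 1 of TGF-β-treated WT MSCs (0.35, adjusted p = 0.0618) and without array 4 of that group (0.29, adjusted p = 0.0985). With 1 probeset per gene, the most variable, Smurf1 was represented by 1428396_PM_at and was not called in WT MSCs (0.20, adjusted p = 0.128).

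**Figure D3:**
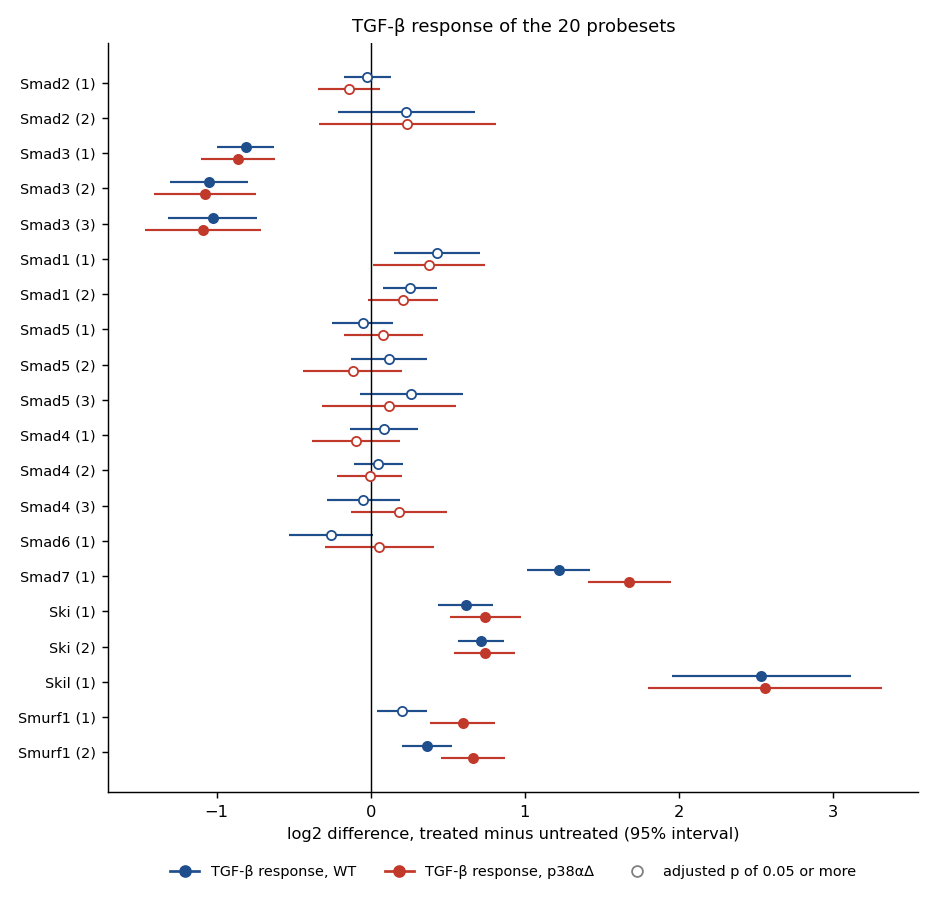
TGF-β response (horizontal axis, log2 difference of treated minus untreated with its 95% interval) of the 20 probesets in WT (blue) and p38α∆ MSCs (red), where the probesets of a gene are numbered from the highest mean level down and open points have an adjusted p of 0.05 or more. Skil, Smad7 and Ski lie to the right of 0 and Smad3 to the left in both genotypes, and Smurf1 lies farther to the right in p38α∆ than in WT MSCs.

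Within array numbers, the WT response of Skil was 3.32 within number 1, 2.47 within number 3 and 2.04 within number 4, where arrays 4 and 4b were averaged. That of Smad7 was 1.34, 1.31 and 1.09, and that of the leading Ski probeset 0.56, 0.55 and 0.67. The leading Smad3 probeset gave −0.76, −1.03 and −0.66. The direction was the same within each number for these genes. For the probesets of Smurf1 the values were 0.13, 0.14 and 0.31 for the leading one and 0.42, 0.14 and 0.49 for the other. In p38α∆ MSCs number 1 alone holds both treated and untreated arrays, and it gave 2.63 for Skil, 1.77 for Smad7, 0.68 for the leading Ski probeset, 0.54 for the leading Smurf1 probeset and −0.84 for the leading Smad3 probeset. In all 4 groups the array numbered 1 lay below the mean of the others for 11 of the 20 probesets and above it for 7, against 25.1% and 29.6% of all probesets. The 11 were those of Skil, Smad7, Smad2, Smad4 and Smad5 with the leading one of Smad1, and the 7 were those of Smad3, Ski and Smurf1.

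The genotypes were compared next, to ask whether loss of p38α moved these genes themselves. These comparisons use the same arrays as the TGF-β responses and are not independent of them. With TGF-β, none of the 10 genes was called between p38α∆ and WT MSCs, where 0.316% of all genes were. Of the 20 probesets, 5 (25%) had an unadjusted p under 0.05, against 8.17% of the 28898 probesets with 1 gene name. Both Smurf1 probesets, which read the same transcripts, were among them. Smurf1 came nearest. For 1428395_PM_at the difference was 0.45 (SE 0.08, 95% interval 0.26 to 0.63, adjusted p = 0.0701 in limma), and for 1428396_PM_at 0.37 (SE 0.08, 95% interval 0.19 to 0.56, adjusted p = 0.153). The first adjusted p depended on the random block. In limma without a block the 2 values were 0.208 and 0.791, and with the array number as a fixed term 0.228 and 0.246. For both probesets each TGF-β-treated p38α∆ array was above each TGF-β-treated WT array, as it was for Smad7, so 2 of the 10 genes had such a probeset, against 7.09% of all genes. Within number 1 the leading Smurf1 probeset differed by 0.39 and within number 4 by 0.28, and the other by 0.47 and 0.28.

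The other members had larger adjusted p-values in that comparison. The leading Smad5 probeset, 1433641_PM_at, differed by 0.27 (95% interval 0.05 to 0.50, unadjusted p = 0.0216, adjusted p = 0.56 in limma), by 0.34 within number 1 and by 0.26 within number 4. The other Smad5 probesets did not follow it. For 1421047_PM_at the difference was −0.11, with −0.10 within number 1 and −0.11 within number 4. For 1451873_PM_a_at it was 0.02, with −0.05 and −0.07 within these numbers. Smad6 differed by 0.33 (95% interval 0.02 to 0.64, adjusted p = 0.676 in limma), by 0.06 within number 1 and by 0.38 within number 4. The leading Ski probeset differed by 0.24 (95% interval 0.04 to 0.45, adjusted p = 0.564) and Smad7 by 0.22 (95% interval −0.02 to 0.45, adjusted p = 0.756). For Skil the difference was 0.15 with an interval from −0.51 to 0.81, and within numbers it changed sign, −0.17 within number 1 and 0.39 within number 4. The 3 Smad3 probesets lay at −0.19 to −0.07, with a 95% interval of −0.28 to 0.14 for the leading one. In the paper, RT-PCR gave higher Smad3 mRNA in p38α∆ MSCs, treated or untreated. The array values, here and without TGF-β below, do not show this rise, and the reason was not tested. For Smad2, Smad4 and Smad7 the paper reported no such rise, and the arrays gave no call for them between the genotypes. The median over the leading probesets of the 10 genes was 0.18, against −0.01 over all genes.

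Without TGF-β, none of the 10 genes was called between p38α∆ (n = 2) and WT MSCs (n = 4) in limma, as none of all genes was (0%). Of the 20 probesets 2 (10%) had an unadjusted p under 0.05, as did 1398 (4.84%) of all probesets with 1 gene name. The smallest adjusted p among the members was 0.987. Differences ran from −0.24, for Smad7 (95% interval −0.49 to 0.003), to 0.23, for the Smad1 probeset 1416081_PM_at (95% interval 0.02 to 0.44). Smurf1 stood at −0.02 and 0.15, Ski at 0.12 and 0.13, Skil at 0.12 (95% interval −0.57 to 0.81) and the Smad3 probesets at −0.12 to −0.03.

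**Figure D4:**
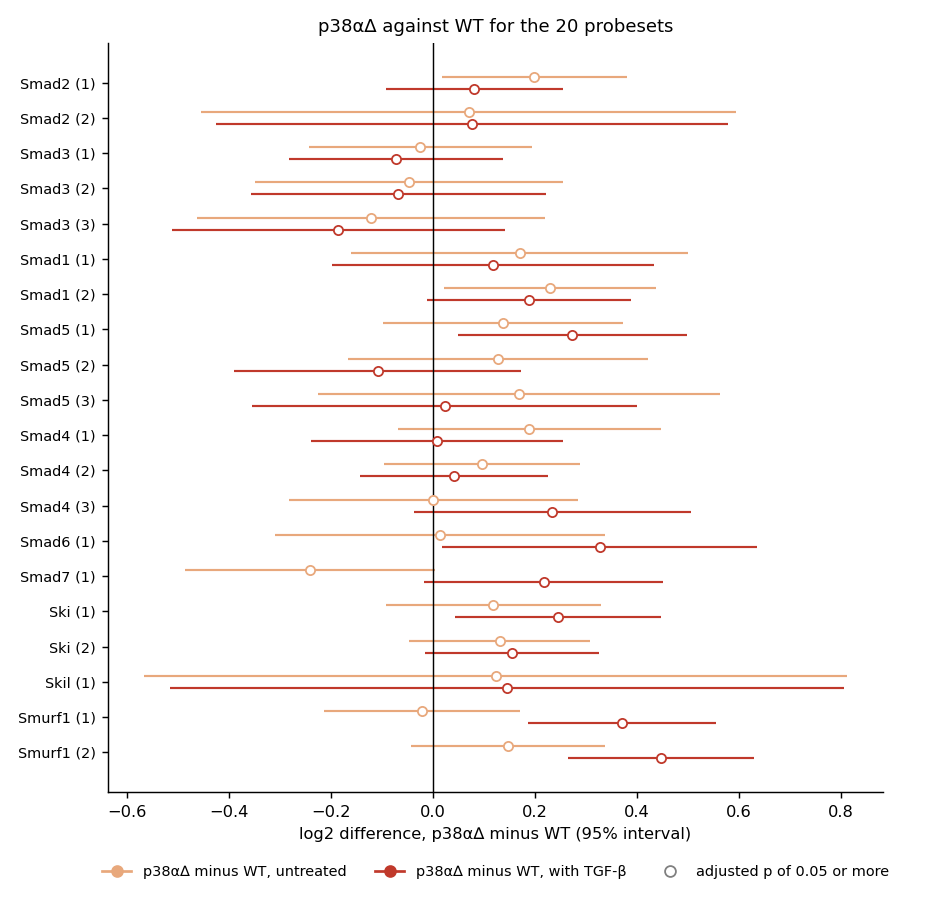
Difference of p38α∆ minus WT (horizontal axis, log2, with its 95% interval) for the 20 probesets in untreated (orange) and TGF-β-treated MSCs (red), with the probesets of a gene numbered from the highest mean level down. All points are open, since no probeset had an adjusted p under 0.05, and both Smurf1 intervals cross 0 in untreated and lie above 0 in TGF-β-treated MSCs.

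The last contrast set the TGF-β response of p38α∆ MSCs minus that of WT MSCs, to ask whether they differ. None of the 10 genes was called in limma, and 0.00585% of all genes were. Of the 20 probesets, 3 (15%) had an unadjusted p under 0.05, against 5.37% of the 28898 probesets with 1 gene name. They were that of Smad7 and both of Smurf1, which read the same transcripts. The Smad7 response was larger in p38α∆ MSCs by 0.46 (SE 0.16, 95% interval 0.11 to 0.80, unadjusted p = 0.0135, adjusted p = 0.945). The Smurf1 responses were larger by 0.39 (SE 0.12, 95% interval 0.12 to 0.66, unadjusted p = 0.0083) and 0.30 (SE 0.12, 95% interval 0.03 to 0.57, unadjusted p = 0.0313), with an adjusted p of 0.945 for each. Since adjusted values missed the threshold, a difference of the responses is not shown, although Smurf1 passed in p38α∆ with both probesets and in WT MSCs with 1 of them. For Skil the difference was 0.02 (95% interval −0.95 to 0.99), for the Ski probesets 0.13 and 0.02, and for the Smad3 probesets −0.06 to −0.02. The Skil interval is wide enough to hold a response up to 0.95 smaller or 0.99 larger on the log2 scale.

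**Figure D5:**
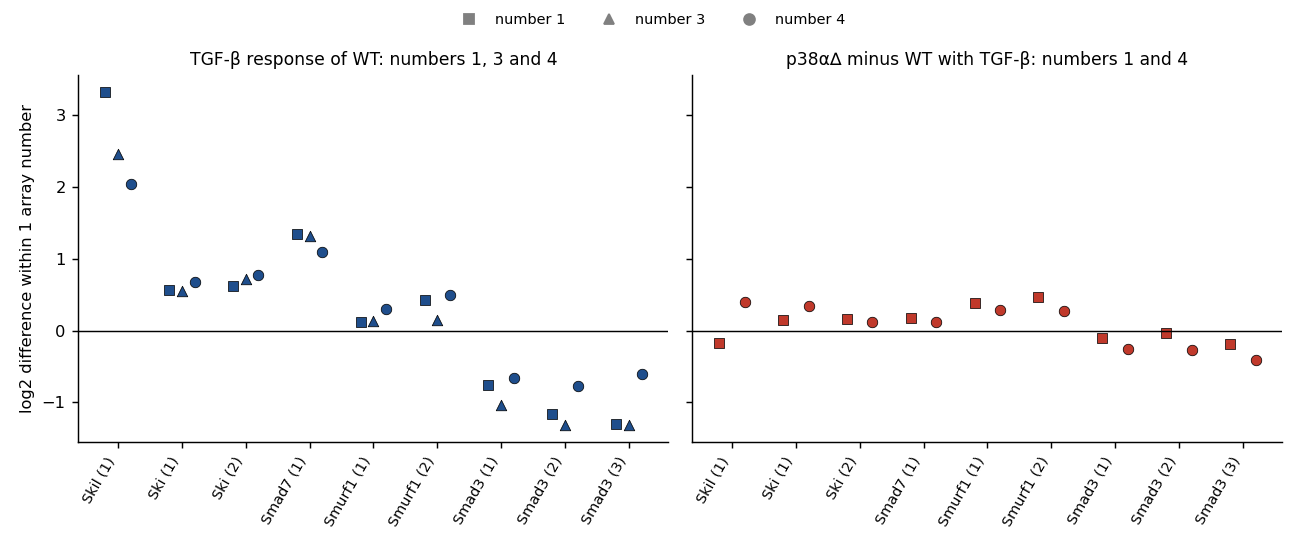
Log2 differences (vertical axis) within 1 array number for the 9 probesets of Skil, Ski, Smad7, Smurf1 and Smad3, at the left for TGF-β in WT MSCs (numbers 1, 3 and 4) and at the right for p38α∆ minus WT with TGF-β (numbers 1 and 4). At the left the points of a probeset lie on 1 side of 0, and at the right those of Skil lie on both sides while those of both Smurf1 probesets lie between 0.28 and 0.47.

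The genes around the members were described with lists from general knowledge, counted like the members. Of 23 measured regulators of Smads (ligases, deubiquitinases, phosphatases, anchors and receptor decoys), 2 rose, 2 fell and 19 were not called with TGF-β in WT MSCs, with a median difference of 0.11 against −0.01 over all genes. Ldlrad4, a membrane protein that keeps Smad2 and Smad3 from the receptor, rose by 1.78 (adjusted p = 0.000123) in WT and by 2.24 (adjusted p = 0.000197) in p38α∆ MSCs. Its level went from 6.07 ± 0.24 (SD, n = 4) to 7.84 ± 0.40 (SD, n = 3) in WT MSCs. Rnf111, a ligase that removes Ski and Skil protein, rose by 0.31 in WT MSCs (adjusted p = 0.0238) and stood at 0.12 in p38α∆ MSCs (adjusted p = 0.616). Smad9, the third BMP-branch Smad, fell by 0.42 in WT MSCs (adjusted p = 0.0133), and Dab2, an adaptor of the receptors, fell by 0.42 in WT and by 0.50 in p38α∆ MSCs. In p38α∆ MSCs 2 of the list rose, Ldlrad4 and the decoy receptor Bambi (0.50, adjusted p = 0.0344), 1 fell and 20 were not called (median 0.02 against −0.003). Smurf2, the close relative of Smurf1, stood at 0.09 in WT and at 0.15 in p38α∆ MSCs, neither called.

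Of 15 measured nuclear partners of Smads and Ski, 3 rose, 1 fell and 11 were not called with TGF-β in WT MSCs (median 0.09). Runx1, a transcription factor that joins Smads at promoters, rose by 1.41 (limma adjusted p = 4.04e-05) in WT and by 1.75 (adjusted p = 6.77e-05) in p38α∆ MSCs. Prdm16, a partner of Ski, and Zeb1, a repressor, rose in WT MSCs through probesets other than their leading one, and Sin3a, a scaffold of the repressor complex that Ski recruits, fell by 0.53. In p38α∆ MSCs Runx1 rose and the other 14 were not called (median −0.01).

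Of 12 receptors, 2 rose, 2 fell and 8 were not called with TGF-β in WT MSCs (median 0.07), and 1 rose, 2 fell and 9 were not called in p38α∆ MSCs (median 0.10). Tgfbr2, the receptor that binds TGF-β first, fell by 0.30 (limma adjusted p = 0.00891) in WT and by 0.32 (adjusted p = 0.0294) in p38α∆ MSCs. Tgfbr3 (betaglycan), which presents the ligand, fell by 0.44 and 0.73. Acvr1, a type I receptor that activates Smad1 and Smad5, rose by 0.69 in WT (adjusted p = 0.000542) and by 0.54 in p38α∆ MSCs (adjusted p = 0.0161), and Bmpr2, the type II receptor of BMPs, rose in WT MSCs through 1 probeset.

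Of 16 measured target genes of Smad2 and Smad3, 5 rose, 2 fell and 9 were not called with TGF-β in WT MSCs (median 0.14), and p38α∆ MSCs gave the same counts (median 0.06). Ccn2, a secreted matrix protein, rose from 3.65 ± 0.25 (SD, n = 4) to 7.21 ± 0.35 (SD, n = 3) in WT and from 4.19 ± 0.13 (SD, n = 2) to 8.98 ± 0.25 (SD, n = 3) in p38α∆ MSCs. Its untreated WT level was below the median of all probesets on an array (4.22 to 4.27) and was not shown to be above background, so the size of its rise is uncertain. Bhlhe40, a transcriptional repressor, rose by 1.74 in WT and by 1.97 in p38α∆ MSCs, Tgfbi, another matrix protein, by 1.36 and 1.49, and Timp1, an inhibitor of matrix proteases, by 0.75 and 0.72. The cytokine gene Il11 rose by 0.66 (adjusted p = 0.0274 in limma) in WT MSCs and stood at 0.70 (adjusted p = 0.0779) in p38α∆ MSCs. Junb, a subunit of AP-1, rose by 1.35 (adjusted p = 0.00544) in p38α∆ MSCs and stood at 0.39 (adjusted p = 0.297) in WT MSCs. Cdkn1a, an inhibitor of cyclin-dependent kinases, fell by 0.58 and 1.01. In the comparison of the genotypes with TGF-β, 1 of the 16 was called, Ccn2 (1.74, limma adjusted p = 0.00435). Of 9 measured targets of Smad1 and Smad5, 1 rose (Sp7, an osteoblast transcription factor), 3 fell (Id2, Id3 and Hey1) and 5 were not called in WT MSCs (median −0.11), and in p38α∆ MSCs the same 3 fell and 6 were not called (median 0.04). Id3, an inhibitor of basic helix-loop-helix factors, went from 8.98 ± 0.08 (SD, n = 4) to 7.67 ± 0.02 (SD, n = 3) in WT MSCs, a fall of 1.31, and fell by 1.33 in p38α∆ MSCs. No other gene of these 5 lists was called between the genotypes with TGF-β, and none without it or in the difference of the responses.

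Over the 12 arrays, the probesets of other genes whose log2 values moved most like those of the called members were found by the root-mean-square difference after each probeset was centred on its own mean, and 3 are named for each. Closest to Smad7 were Sgk1, a kinase induced by serum and hormones (0.11), Smim3 (0.13) and Enc1, an actin-binding protein (0.14), against a spread of 0.74 of Smad7 about its own mean. Closest to Skil were Ccn4, a secreted matrix protein (0.33), and 2 probesets of Egr2, an early response transcription factor (0.36 and 0.37), against a spread of 1.38. Closest to Ski were Iqgap1, a cytoskeletal scaffold (0.08), Irf2bpl (0.09) and Gp1bb (0.09), against 0.39. Closest to Smad3 were Alkbh7 (0.11), Bcl2l11, a gene of the pro-death protein Bim (0.12), and Kif13b, a motor protein (0.13), against 0.43. Closest to Smurf1 were Mchr1 (0.07), Wnt1, a secreted Wnt ligand (0.08), and Lfng, which modifies Notch (0.09), against 0.28. The arrays share their treatment and their numbers, and the likeness is a description of these 12 arrays.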

How the data were processed

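RNA of MSCs was hybridized to Affymetrix MG-430 PM arrays. The authors normalized the raw files with RMA (affy and affyPLM in R), and the deposited values are on a log2 scale, 1 per probeset and array, used as deposited. RMA removes background and sets the arrays to a common distribution, so a shift shared by most transcripts cannot be seen. Of 45101 probesets, 64 array controls were left out. The platform annotation, which can be old, gives 1 symbol to 28898 of the remaining 45037, several to 551 and none to 15588.

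The 4 groups, taken from the sample labels, were fitted together in limma 3.58.1 (R 4.3.3) with the array number as a random block (estimated correlation 0.460) and array 4b counted with number 4. The authors' methods adjust for scanning batch, which is not given in the sources used here. Same-numbered arrays of different groups deviated together from their group means in all 14 pairs (correlation 0.113 to 0.837). The other 39 pairs ran from −0.822 to 0.736, so some arrays of different numbers also deviated together. Array 4 of TGF-β-treated p38α∆ MSCs correlated at 0.661 with array 3 of TGF-β-treated WT MSCs and at 0.113 with array 4 of the latter. The shared deviation by number is thus only a hint from the data, and no label states what the numbers mean. Arrays 4 and 4b differed by 0.158 (root-mean-square, log2), close to 0.165 between arrays 3 and 4, and were kept as 2 arrays. Tests were two-sided, with p-values adjusted over 45037 probesets by the Benjamini-Hochberg method and a threshold of 0.05. The fit was also run on simulated data, with the same correlation for every array number and the same TGF-β change in both genotypes. Such a run checks the code and cannot show whether the block suits these arrays.

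The member genes, lists and comparisons were chosen with earlier results of these data known. The genes named are the members, up to 6 called genes per list with the largest differences, and the 3 likest probesets per called member. Smurf2 was named after its values were seen. Alternatives were the block left out or fixed, the arrays numbered 1 left out, only the groups compared, 1 probeset per gene, no dim probesets, centred arrays, another prior and each array left out in turn.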

Additional observations from a re-analysis of the deposited data

Results flagged for a closer look

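Among the 4 WT arrays, array 1 stood apart from the other 3 for 4 of the 20 probesets examined. The gap to the nearest array, as a share of the group's range, was 0.926 for Skil (4.58 against 6.13 for the next array), 0.898 for the Smad4 probeset 1422487_PM_at (9.01 against 9.53), 0.866 for the Smad1 probeset 1448208_PM_at (7.32 against 7.96) and 0.84 for the Smad5 probeset 1433641_PM_at (5.76 against 6.16), above the 95% limit of Dixon's test for 4 samples. In each case array 1 was the lowest. Chance gives such a gap in about 1 in 20 groups, and the 4 probesets share the same array. In the other groups, of 2 or 3 arrays, no gap was examined.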

How the results depend on the processing

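The alternatives recomputed 25 differences. These were the TGF-β responses of the 5 called genes, those of Ski and Smurf1 between the TGF-β-treated genotypes and those of Smad7 and Smurf1 between the responses. None of them reversed its direction, but most were called in the main fit, where a reversal is unlikely. The other differences named above, such as those of Smad1 or of Skil and Smad3 between the genotypes, were not followed by size. Of 486 recomputed differences, 472 stayed on their side of the threshold and 14 lost the call. The 5 called genes stayed 5 in both TGF-β responses without the replicate block and with the replicate block as a fixed term, so the block changed no call of a member gene. Over all probesets, leaving out the block lowered the calls from 2704 to 994 in the WT response, from 2347 to 1058 in the p38α∆ response and from 84 to 19 between the TGF-β-treated genotypes (13 with the block as a fixed term). With a fit of only the groups compared, the p38α∆ response gave 1 gene, Smad7, with 93 of all probesets called, and no block correlation could be estimated from those 5 arrays. Skil was then at 2.58 (adjusted p = 0.186) and the Smad3, Ski and Smurf1 probesets at adjusted p from 0.13 to 0.306. This fit was not run for the difference of the responses, which needs all 4 groups. With each array left out in turn, the WT response gave 4 to 6 genes, the p38α∆ response 5, and the other 3 comparisons 0. Where 1 untreated p38α∆ array was left, it was assumed to vary like the other groups. Between the TGF-β-treated genotypes, leaving out 1 array gave from 8 (array 4 of TGF-β-treated p38α∆) to 115 (WT array 4b) called probesets, and without WT array 4b 5 of all probesets were called between the untreated genotypes. Leaving out 1 array gave 1541 to 3133 called probesets in the WT and 1161 to 2712 in the p38α∆ response, against 2704 and 2347. Without the 4 arrays numbered 1, 32 were called between the TGF-β-treated genotypes, and with 1 probeset per gene, where fewer are tested, 1681 in the WT and 1423 in the p38α∆ response. Without array 1 of p38α∆, the Smad3 probeset 1450472_PM_s_at lost its call there (−0.98, adjusted p = 0.0619). The RMA values carry no detection call, so how far the lowest Skil and Ccn2 values lie above background was not measured.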
